A study of Mus musculus with 6 samples.

Results

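Entry into and exit from the cell cycle are controlled at one gate by 10 genes measured together here: the CDK inhibitors Cdkn1a, Cdkn1b, Cdkn2a, Cdkn2b and Cdkn2c, the retinoblastoma family Rb1, Rbl1 and Rbl2, and the D cyclins Ccnd1 and Ccnd2. They were chosen by symbol and matched to the Ensembl identifiers of a count table of 55401 genes, and all 10 of the 55401 were found. RNA was sequenced from C3H10T1/2 cells, mesenchymal cells of mouse embryo origin kept as a line, from which bone, fat and cartilage cells can be grown. The cells carried a retroviral short hairpin RNA: a control hairpin (shControl, labelled wild type), one against Nfib (shNFIB, labelled as NFIB knockdown) or one against Kmt2a, the gene for MLL1 (shMLL1, labelled as MLL1 knockdown). Each line was sampled untreated at day 0 and after 7 days in osteogenic medium, to which dexamethasone (0.1 µM), β-glycerophosphate (20 mM) and ascorbic acid 2-phosphate (100 µg/ml) were added. Every one of the 6 conditions had 1 library, so a difference between 2 libraries has no replicate check, and the lines are knockdown populations in which some Nfib or Kmt2a RNA remained.

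D cyclins accumulate when growth signals reach a cell, bind CDK4 or CDK6 and start the phosphorylation of the retinoblastoma proteins. Unphosphorylated retinoblastoma proteins hold E2F factors in check, and phosphorylation frees E2F to switch on the genes of DNA replication. The INK4 inhibitors, encoded by the Cdkn2 genes, bind CDK4 and CDK6 directly, whereas the Cip/Kip inhibitors p21, encoded by Cdkn1a, and p27, encoded by Cdkn1b, bind cyclin and CDK complexes of several kinds. Of the retinoblastoma family, p107, encoded by Rbl1, is itself an E2F target that is abundant in cycling cells, and p130, encoded by Rbl2, is the member known for resting cells and for the DREAM repressor complex. In bone-forming cells, leaving the cell cycle accompanies differentiation, and RB1 and p27 have been studied in that setting.

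The libraries held between 21608680 counts, in shMLL1 at day 7, and 34774066 counts, in shNFIB at day 0. Levels are given as CPM, the count of a gene scaled to its library's total with a factor from the trimmed mean of M-values (TMM), or as CPM per kilobase of exon where genes are compared with each other. Nfib was measured at 116 CPM in shControl at day 0 and at 83.5 CPM at day 7, against 35.3 and 8.15 CPM in shNFIB, while shMLL1 had 65.5 and 72.7 CPM. Kmt2a was at 74.7 and 66.3 CPM in shControl, 86.5 and 94.0 in shNFIB, and 30.9 and 34.8 in shMLL1. Each hairpin's target was thus lowest in its own line at both days. Of 10 mesenchymal markers 9 were measured well enough to be tested, with a summed level of 4580 to 11000 CPM. None of 5 osteoblast markers passed the filter on low counts, and Ibsp had 0 counts. The 5 summed to 0.166 to 0.47 CPM at day 0 and to 0.697 to 7.44 CPM at day 7. Alpl, though filtered out and not tested, went up from 0.219 to 3.64 CPM in shControl. In shNFIB it went from 0.253 to 7.27 CPM, whereas shMLL1 had 0 CPM at day 0 and 0.082 CPM at day 7. At such low levels the day 7 libraries are called by their time and medium and not as osteoblasts. Macrophage (0 counts of Adgre1), endothelial, epithelial (0 counts of Epcam) and skeletal muscle markers (0 counts of Myf5 and Ckm) summed to at most 8.20, 25.4, 9.14 and 0.0994 CPM. Among these 4 lists, Cd68 rose and Tek and Cdh1 fell from day 0 to day 7, and their part in the results below was not tested.

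Across the 3 lines, Rbl1, Ccnd1 and Ccnd2 fell from day 0 to day 7, and no CDK inhibitor among the 10 genes changed past the threshold. Cdkn2d, a CDK inhibitor outside the 10, was called lower and is given with the other genes of the pathway. In such bulk samples fewer cycling cells and less RNA per cell cannot be told apart. The test was edgeR's quasi-likelihood test of day with the line as a block, with Benjamini-Hochberg adjustment over 15708 genes at a false discovery rate of 5%. The lines are a control and different knockdowns, not replicates of a single condition. The spread behind the test is thus that of their day changes and not that of repeat cultures. Of the 10 genes, 8 passed the filter on low counts and 2, Cdkn2a and Cdkn2b, had no counts at all. Members called lower numbered 3, and 17.3% of all genes tested were lower. Members called higher numbered 0, and 17.1% of all genes tested were higher. At an unadjusted p under 0.05 the fit had 5 of the 8, Cdkn1b and Cdkn2c being the others, beside 47.4% of all genes, and DESeq2 called the same number of members as edgeR, 3. Without the shControl line the genes called over the whole table dropped to 967 higher and 1076 lower, while Rbl1, Ccnd1 and Ccnd2 were still called lower. The median of the 8 was -0.44 on the log2 scale beside -0.02 over all genes tested. In single lines, where a gene counts as different past 2-fold, 2 of the 8 passed in shControl, 4 in shNFIB and 3 in shMLL1, all lower at day 7. Over all genes 34.6%, 28.4% and 41.8% passed in the same 3 comparisons, in either direction.

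**Figure D1:**
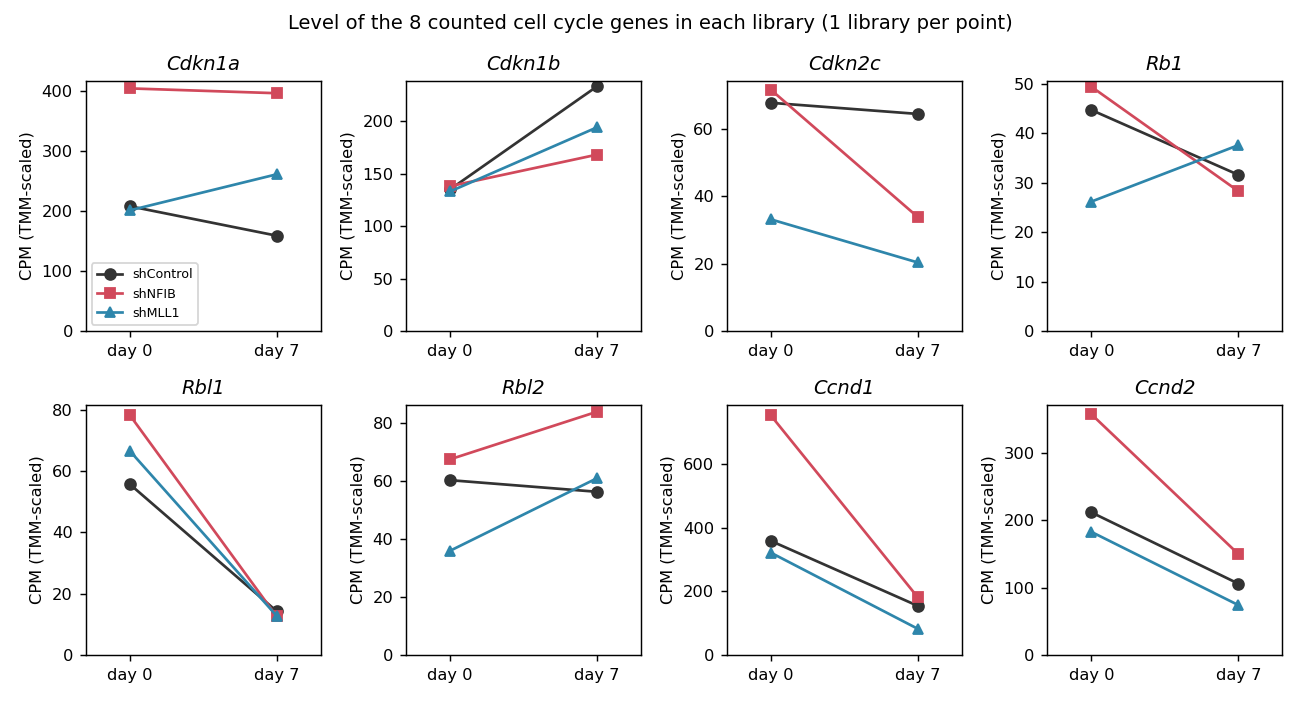
Level of the 8 counted genes in TMM-scaled CPM on linear axes from 0, at day 0 and day 7, with 1 point per library and a line joining the days of shControl (black circles), shNFIB (red squares) and shMLL1 (blue triangles). Rbl1 converges on 12.6 to 14.3 CPM at day 7 in the 3 lines, whereas Ccnd1 starts at 752 CPM in shNFIB, above shControl (358 CPM) and shMLL1 (321 CPM).

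Both D cyclins fell, and before differentiation Ccnd1 was the most abundant of the 10 genes per kilobase. At day 0 it had 76.1, 160 and 68.2 CPM per kilobase in shControl, shNFIB and shMLL1, followed by Cdkn1a with 58.6, 114 and 56.6. At day 7 Ccnd1 had 32.8, 38.5 and 17.4 CPM per kilobase and was no longer first in any line: Cdkn1b led in shControl with 51.1, and Cdkn1a led in shNFIB and shMLL1 with 112 and 73.5. Ccnd1 (ENSMUSG00000070348, chr7:144929931-144939925, minus strand, GRCm38), the cyclin that answers to Wnt, Ras and adhesion signals, had 358 CPM in shControl at day 0 and 154 CPM at day 7. In shNFIB it went from 752 to 181 CPM, and in shMLL1 from 321 to 82.0 CPM. The widest gap between lines was at day 0, where shNFIB stood above the others. Over the lines Ccnd1 fell by 1.75 on the log2 scale (SE 0.25, n = 3 lines, edgeR quasi-likelihood test, adjusted p = 0.00426). In single lines the log2 change was -1.22 in shControl with a 95% counting interval of -1.26 to -1.17, -2.05 in shNFIB (-2.10 to -2.01) and -1.97 in shMLL1 (-2.04 to -1.90). The day change in shNFIB minus that in shControl was -0.84 log2 units, with a counting interval of -0.90 to -0.77, and the day change in shMLL1 minus that in shControl was -0.76 (-0.84 to -0.67). These intervals cover counting error only and the design has no test of the difference between lines. Part of the Ccnd1 exons, 1100 bases, overlaps LTO1 on the other strand. The strand setting of the counting is not given in the sources used here, so it is not known whether reads there were counted for Ccnd1. The exon length used for levels per kilobase includes such shared bases, for Ccnd1 and for the other genes with an overlap.

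Ccnd2 (ENSMUSG00000000184, chr6:127125162-127152193, minus strand), a second D cyclin with a partly different tissue range, followed the same course at a lower level per kilobase. Its level was 212 CPM at day 0 and 106 CPM at day 7 in shControl, 358 and 150 CPM in shNFIB, and 183 and 74.1 CPM in shMLL1. The shNFIB line was the highest and shMLL1 the lowest at both days. Over the lines Ccnd2 fell by 1.19 log2 units (SE 0.19, edgeR quasi-likelihood test, adjusted p = 0.00625), with -0.99, -1.26 and -1.31 in shControl, shNFIB and shMLL1. Its exons share 740 bases with 9330179D12Rik and Gm43126 on the other strand. Per kilobase Ccnd1 exceeded Ccnd2 in each library, by a ratio of 3.38, 4.2 and 3.5 at day 0 and of 2.9, 2.42 and 2.21 at day 7 in shControl, shNFIB and shMLL1. Summed per kilobase, both D cyclins went from 98.6 to 44.1 in shControl, from 198 to 54.4 in shNFIB and from 87.7 to 25.3 in shMLL1. The ratio of Ccnd1 to Ccnd2 went down from day 0 to day 7 in 3 of 3 lines.

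Per kilobase of full exon length, the retinoblastoma family exchanged its leading member. Rbl1 (ENSMUSG00000027641, chr2:157145893-157204534, minus strand) had 55.8, 78.4 and 66.7 CPM at day 0 in shControl, shNFIB and shMLL1. At day 7 it had 14.3, 12.6 and 12.8 CPM in the same order. Its fitted day change was the largest of the 8 counted genes, and the day 7 levels of the lines lay close together. Rbl1 fell by 2.33 log2 units (SE 0.21, n = 3 lines, edgeR quasi-likelihood test, adjusted p = 0.000955), with -1.96, -2.64 and -2.38 in the single lines. Rbl2 (ENSMUSG00000031666, chr8:91070057-91123844, plus strand) had 60.2 and 56.2 CPM in shControl, 67.4 and 83.8 CPM in shNFIB, and 35.9 and 60.9 CPM in shMLL1. Its day 0 and day 7 libraries overlapped, and the fitted difference of 0.33 (SE 0.22, edgeR adjusted p = 0.274) did not pass. Rb1 (ENSMUSG00000022105, chr14:73183673-73325822, minus strand), the founding tumour suppressor of the family, had 44.7 and 31.6 CPM in shControl, 49.4 and 28.3 CPM in shNFIB, and 26.2 and 37.6 CPM in shMLL1. It was lower at day 7 in shControl and shNFIB and higher in shMLL1, and over the lines its difference was -0.27 (SE 0.28, edgeR adjusted p = 0.486). Without the shMLL1 line, Rb1 was called lower by edgeR, with a log2 difference of -0.69 and an adjusted p of 0.0401. On the other strand, Lpar6 and Rcbtb2 share 896 exon bases with Rb1, and Aktip and Gm45464 share 1585 with Rbl2.

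Per kilobase, Rbl1 made up 37.7% of the RNA of the 3 family members at day 0 in shControl and 15.8% at day 7. The Rbl1 share went from 43.3% to 11.7% in shNFIB and from 55.0% to 13.0% in shMLL1. The share of Rbl2 was 32.2% and 49.3% in shControl, 29.5% and 61.9% in shNFIB, and 23.5% and 49.0% in shMLL1. By full exon length, Rbl1 was thus the largest of the 3 at day 0 and the smallest at day 7 in each line. Rbl2 was the largest at day 7. These lengths include bases shared with genes on the other strand, 1585 of 7558 for Rbl2, 896 of 6015 for Rb1 and 0 for Rbl1. In shControl at day 0, the order of Rbl1 and Rbl2 depends on whether reads in the shared bases were counted. The Rb1 share, by contrast, lay between 21.6% and 38.0% without a common direction. The family as a whole summed to 24.7 and 15.1 CPM per kilobase in shControl, 30.2 and 17.9 in shNFIB, and 20.2 and 16.4 in shMLL1.

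Because Rbl1 fell and Rbl2 was not called, their promoters are shown beside each other, with the first listed promoter of Cdkn2a, a gene without counts, as the third. The sequences are the 250 bases before the start of the transcript, 5′ to 3′, from RefSeq on GRCm38.p6, which listed promoters for 7 of the 10 genes and none for Rb1, Ccnd1 and Ccnd2. Capitals mark the E2F words TTTCCCGC, TTTCGCGC, TTTGCCGC and TTTGGCGC, or the CHR word TTTGAA. The CHR is an element known from genes that the DREAM complex binds, not from the genes that encode it. Each word was searched on both strands, so that TTCAAA is CHR read on the minus strand. Rbl1 is chr2:157204535-157204784 (minus strand), Rbl2 is chr8:91069807-91070056 (plus strand) and Cdkn2a is chr4:89294620-89294869 (minus strand).
Rbl1: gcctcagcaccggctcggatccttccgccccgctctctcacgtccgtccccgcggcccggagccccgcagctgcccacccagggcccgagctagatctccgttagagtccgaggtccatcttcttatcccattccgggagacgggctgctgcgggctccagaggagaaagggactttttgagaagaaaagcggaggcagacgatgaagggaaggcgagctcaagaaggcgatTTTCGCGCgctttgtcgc
Rbl2: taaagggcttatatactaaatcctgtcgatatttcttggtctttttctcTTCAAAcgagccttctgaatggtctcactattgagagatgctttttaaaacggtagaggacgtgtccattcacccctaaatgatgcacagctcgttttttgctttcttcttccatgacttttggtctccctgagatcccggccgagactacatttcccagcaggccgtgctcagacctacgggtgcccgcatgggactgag
Cdkn2a: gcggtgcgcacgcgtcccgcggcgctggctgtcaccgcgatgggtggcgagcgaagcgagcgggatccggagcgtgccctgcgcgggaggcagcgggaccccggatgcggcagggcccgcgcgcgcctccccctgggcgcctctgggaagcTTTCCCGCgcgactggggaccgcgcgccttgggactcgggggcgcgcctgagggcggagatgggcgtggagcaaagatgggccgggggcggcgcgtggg
The Rbl1 window holds TTTCGCGC at positions -18 to -11 from the start, and the Rbl2 window holds no E2F word and a CHR word at -201 to -196 on the minus strand. The Cdkn2b promoter, not printed, also holds a CHR word, at -161 to -156 on the minus strand. The Cdkn2a window holds TTTCCCGC at -99 to -92. An E2F word was found in 611 of 32851 promoters, or 1.86%, and a CHR word in 16.0%. A GC box, GGGCGG, was in 32.7% of promoters, among them those of Rbl1 and Cdkn1b and 1 of the listed promoters each of Cdkn1a, Cdkn2a and Cdkn2c, and CCAAT was in 33.8%, among them that of Cdkn1b at -161 to -157 and at -35 to -31. No matches of different words overlapped in the promoters of the 10 genes. These are matches of letters, and no binding was measured.

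**Figure D2:**
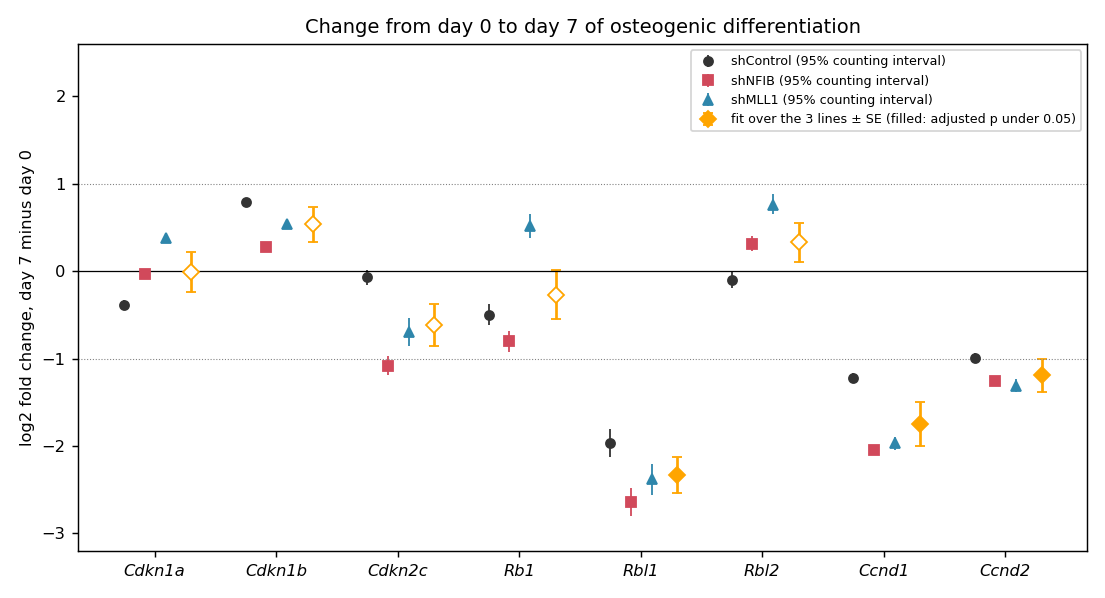
Log2 fold change from day 0 to day 7 of the 8 counted genes in each line, with 95% counting intervals, and the edgeR fit over the 3 lines with its standard error (orange diamonds, filled where the adjusted p was under 0.05). Dotted lines mark 2-fold. Rbl1, Ccnd1 and Ccnd2 lie below 0 in each line, Cdkn1b lies above 0 in each line, and Cdkn1a, Rb1 and Rbl2 lie on both sides.

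The Cip/Kip inhibitors did not pass the threshold in either direction, and they differed from each other in where they varied. Cdkn1b (ENSMUSG00000003031, chr6:134920401-134925513, plus strand) was nearly level at day 0, at 135 CPM in shControl, 138 in shNFIB and 133 in shMLL1. At day 7 it was at 233, 168 and 194 CPM, above day 0 in 3 of 3 lines. The log2 difference was 0.79 in shControl (counting interval 0.73 to 0.84), 0.28 in shNFIB (0.22 to 0.34) and 0.54 in shMLL1 (0.48 to 0.60). Over the lines it was 0.54 (SE 0.20, edgeR quasi-likelihood test, adjusted p = 0.0753), and the adjusted p was 0.042 when libraries were scaled by their totals alone, which moved the difference to 0.67. The day difference of Cdkn1b in shNFIB minus that in shControl was -0.51 (-0.59 to -0.43), and in shMLL1 minus shControl it was -0.25 (-0.33 to -0.16).

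Cdkn1a (ENSMUSG00000023067, chr17:29090976-29100727, plus strand), the p53-responsive inhibitor p21, stood highest in shNFIB. It had 208 and 159 CPM in shControl at day 0 and day 7, 404 and 396 CPM in shNFIB, and 201 and 261 CPM in shMLL1. Both shNFIB libraries stood above the 4 others. The day difference was -0.39 in shControl (-0.44 to -0.33), -0.03 in shNFIB (-0.07 to 0.01) and 0.38 in shMLL1 (0.33 to 0.43), and over the lines it was -0.01 (SE 0.23, edgeR adjusted p = 0.968). The fitted sign turned with the scaling and with the lines used, to 0.12 with library totals alone and to 0.13 without shControl. Cdkn1a shares 273 exon bases with AC167363.2 on the other strand. Its share of the Cip/Kip RNA per kilobase was 66.4% and 46.7% in shControl, 78.9% and 75.1% in shNFIB, and 66.0% and 63.4% in shMLL1, so that shControl at day 7 was the library in which Cdkn1b exceeded Cdkn1a.

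The balance of Cip/Kip inhibitors to D cyclins can be read within a library, without any scaling between libraries. Summed per kilobase, Cdkn1a and Cdkn1b were 0.894 times Ccnd1 and Ccnd2 in shControl at day 0 and 2.18 times at day 7. The ratio was 0.729 and 2.73 in shNFIB and 0.978 and 4.59 in shMLL1. By full exon length, all 3 day 0 libraries lay below 1 and all 3 day 7 libraries above 2. The size of the ratio depends on whether reads in bases shared with genes on the other strand were counted. Cdkn1a, Ccnd1 and Ccnd2 have such bases. The numerator was 88.2 and 95.8 in shControl, 144 and 149 in shNFIB, and 85.8 and 116 in shMLL1, a narrower span than that of the D cyclins given above.

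Cdkn2c was the INK4 member with counts. Cdkn2c (ENSMUSG00000028551, chr4:109660876-109667189, minus strand), which encodes p18, had 67.8 CPM in shControl at day 0 and 64.5 CPM at day 7. In shNFIB it had 71.7 and 33.9 CPM, and in shMLL1 33.2 and 20.4 CPM. It was thus nearly level in shControl and lower at day 7 in both knockdown lines, and shMLL1 was lowest at each day. The log2 day difference was -0.07 in shControl (-0.16 to 0.01), -1.08 in shNFIB (-1.19 to -0.97) and -0.70 in shMLL1 (-0.86 to -0.54). The shNFIB difference was past 2-fold, but not with library totals alone as the scaling. Over the lines it was -0.62 (SE 0.24, edgeR quasi-likelihood test, adjusted p = 0.0817). The day difference in shNFIB minus that in shControl was -1.01 (-1.15 to -0.87), the largest absolute such difference for shNFIB among the 8 genes, with no test possible.

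Cdkn2a (ENSMUSG00000044303, chr4:89274471-89294653, minus strand), which encodes the INK4 protein p16 and, from another reading frame, the p53 activator ARF, had 0 counts in all 6 libraries. Its neighbour Cdkn2b (ENSMUSG00000073802, chr4:89306299-89311039, minus strand), which encodes p15, had 0 counts as well. The 6 libraries held 179377178 counts, so that a count of 0 allows a level of up to 0.0167 CPM over the 6 together (3 counts), and up to 0.0939 to 0.123 CPM in single libraries. Of 21897 protein-coding genes, 4960 or 22.7% were also at 0 in every library. RNA counts cannot tell a gene that is not transcribed from one that is missing from the genome of this line, and no DNA was measured here. The stretch around the 2 genes was looked at after their values were seen. Within 250 kb on either side 14 genes are annotated, the 2 included, and 3 had no counts, the third being the pseudogene Tgif2-ps1. Mtap, a protein-coding gene of methionine salvage whose near end lies 93390 bases away, had 72743 counts, with 12800, 7716, 16056, 9409, 17531 and 9231 in shControl, shNFIB and shMLL1 at day 0 and day 7 in turn. The noncoding Gm12606 begins 1068 bases away and had 13 counts, 11 of them in shMLL1 at day 0. Wincr1 and Gm12602, noncoding genes beyond Mtap, had 815 and 3208 counts.

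**Figure D3:**
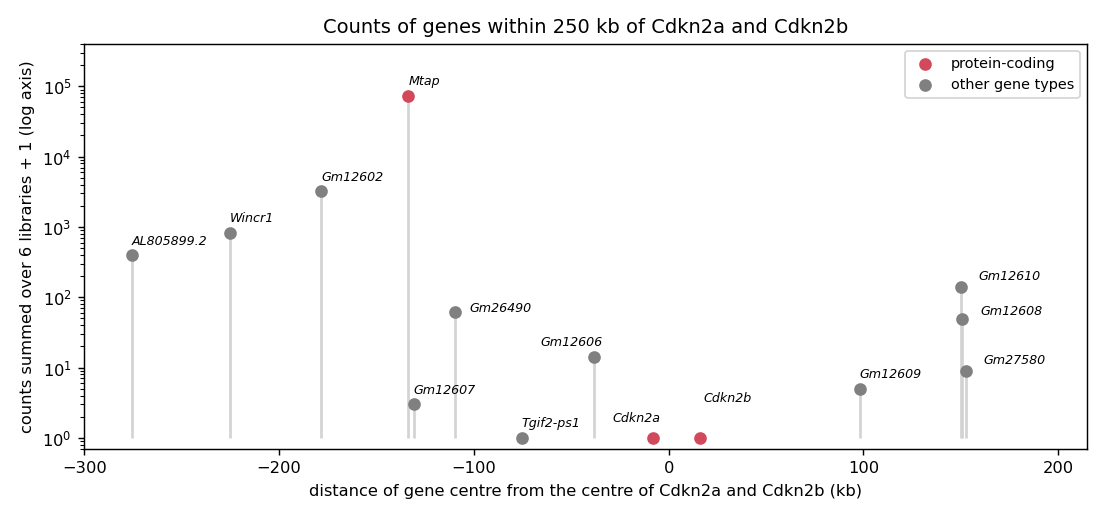
Counts summed over the 6 libraries, plus 1, on a log axis, for the 14 genes annotated within 250 kb of Cdkn2a and Cdkn2b, against the distance of each gene's centre from the centre of the pair in kilobases. Protein-coding genes are red and others grey. Cdkn2a and Cdkn2b sit at the bottom with 0 counts, and Mtap stands highest with 72743.

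Over both days, no member passed the threshold in a knockdown line compared with shControl. The comparison used the same edgeR fit, with 2 libraries a line, and both knockdowns were set against the same shControl libraries. In shNFIB 0.255% of all genes passed and in shMLL1 0.0318%. At an unadjusted p under 0.05 there were 2 of the 8 in shNFIB, Cdkn1a and Ccnd2, beside 12.4% of all genes, and 1 in shMLL1, Cdkn2c, beside 9.17%. Cdkn1a was higher in shNFIB than in shControl by 1.13 log2 units (SE 0.28, edgeR adjusted p = 0.205), while DESeq2's Wald test called it, with 1.10 and an adjusted p of 0.00939. Cdkn2c in shMLL1 had a difference of -1.37 (SE 0.29, edgeR adjusted p = 0.188), and DESeq2 called it lower with -1.33 and an adjusted p of 0.00917. The hairpin targets had the same pattern of calls: Nfib in shNFIB was at -2.39 (edgeR adjusted p = 0.158, DESeq2 adjusted p = 0.000131), and Kmt2a in shMLL1 at -1.10 (edgeR adjusted p = 0.167, DESeq2 adjusted p = 0.00612).

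Library by library, shNFIB at day 0 had more of both D cyclins than shControl, with log2 differences of 1.07 for Ccnd1 (1.04 to 1.10) and 0.76 for Ccnd2 (0.71 to 0.80), and of 0.96 for Cdkn1a (0.92 to 1.00). Only Ccnd1 was past 2-fold, 1 of the 8, beside 12.5% of all genes, and with library totals alone as the scaling it was not past 2-fold either. At day 7 Cdkn1a was past 2-fold in shNFIB, at 1.32 (1.27 to 1.37), again 1 of the 8 and beside 17.5% of all genes. Ccnd1 had come within 0.23 log2 units of shControl, and Ccnd2 was at 0.49. A high D cyclin level and a high Cdkn1a level were therefore found in the same shNFIB library at day 0, and at day 7 the Cdkn1a difference was the larger one.

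In shMLL1 at day 0 Cdkn2c was past 2-fold lower than in shControl, at -1.03 (-1.14 to -0.92), 1 of the 8 and beside 18.1% of all genes. With DESeq2's size factors it was not past 2-fold. Rb1 was at -0.77 (-0.90 to -0.64) and Rbl2 at -0.75 (-0.86 to -0.64), whereas Rbl1 was at 0.26. At day 7 Cdkn2c was at -1.66 (-1.80 to -1.51), again 1 of the 8 and beside 11.8% of all genes. Rb1 and Rbl2 were then at 0.25 and 0.12, and Ccnd1 and Ccnd2 at -0.91 and -0.52. Low Cdkn2c was thus present at both days in shMLL1, while the low Rb1 and Rbl2 of day 0 were not seen at day 7. At day 7 Cdkn2c was lower in shNFIB too, at 33.9 CPM against 64.5 CPM in shControl. Cdkn1a at day 7 was higher in shMLL1 than in shControl, at 261 against 159 CPM, the direction also seen in shNFIB.

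**Figure D4:**
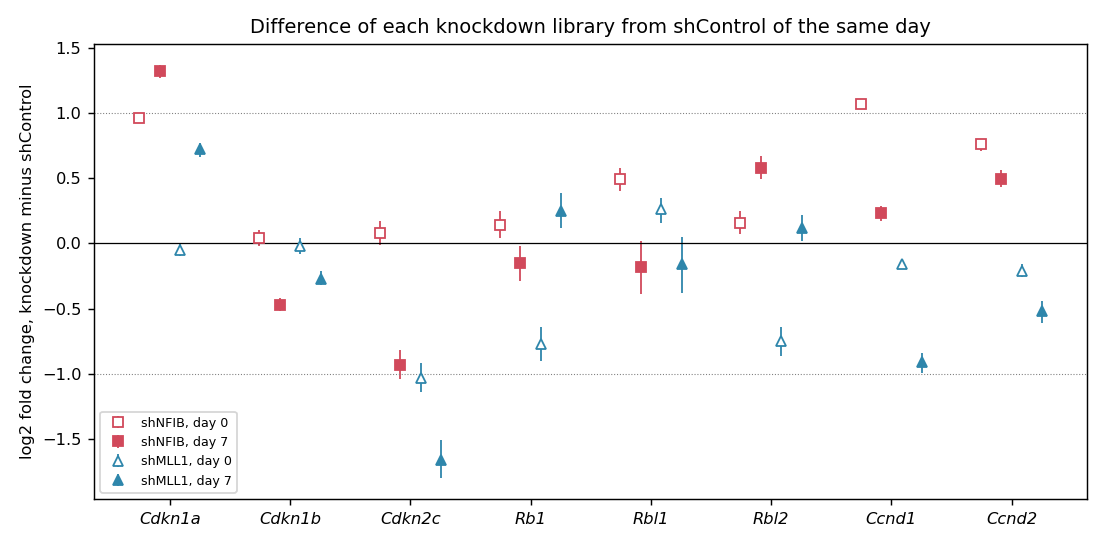
Log2 fold change of the 8 counted genes in each knockdown library against shControl of the same day, with 95% counting intervals, for shNFIB (red squares) and shMLL1 (blue triangles), open at day 0 and filled at day 7. Dotted lines mark 2-fold, and the shControl libraries are shared by both knockdowns. Cdkn1a in shNFIB reaches 1.32 at day 7 and Cdkn2c in shMLL1 reaches -1.66.

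The other genes of the pathway give the setting of these changes, as counts and medians of the same day test over the 3 lines. Among other CDK inhibitors, Cdkn2d, which encodes p19, fell by 1.43 log2 units (SE 0.26, edgeR adjusted p = 0.00874), and Cdkn3, a phosphatase that acts on CDKs and is itself made in cycling cells, fell by 3.50 (SE 0.39, edgeR adjusted p = 0.00168). Cdkn1c, the third Cip/Kip inhibitor, was at 0 to 0.131 CPM and was not tested. Ccnd3, the third D cyclin, did not pass, at -0.35 (SE 0.20, edgeR adjusted p = 0.216). Nor did Cdk4 and Cdk6, the kinases that D cyclins bind, at -0.49 and -0.59, so that 0 of these 3 genes passed, with a median of -0.49. Cdk4 was at 412 to 682 CPM in the 6 libraries.

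Downstream of the gate, the replication genes fell together. All 15 of 15 E2F target genes were called lower, with a median of -2.56, beside 17.3% of all genes called lower. Mcm5 of the replicative helicase fell by 3.82 log2 units, and Tk1 and Rrm2 of nucleotide supply fell, with changes of -3.35 and -3.22. Of 8 genes for the E, A and B cyclins, their kinases and the CDK-activating phosphatase Cdc25a, 6 fell, with a median of -2.59. Ccnb1, Ccna2 and Ccnb2 fell, with changes of -3.83, -3.69 and -3.51, while Cdk2 and Cdc25a were at -0.38 and 0.17 and did not pass. Of the E2F and DP factors 5 of 10 fell, E2f8, E2f7 and E2f2 with changes of -3.81, -3.52 and -2.29, and the median was -0.83. E2f4 and E2f5, the factors that pair with p107 and p130, were at -0.52 and -0.07 and did not pass. Of the list of MuvB and DREAM subunits, which also holds the MuvB partners Foxm1 and Mybl2, 4 of 7 fell, with a median of -1.62. Foxm1 and Mybl2 had changes of -3.1 and -3.0. Among the subunits, Lin9 and Lin54 fell, with changes of -1.99 and -1.62. Lin37, Lin52 and Rbbp4 were at 0.2, -0.32 and -0.09 and did not pass.

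**Figure D5:**
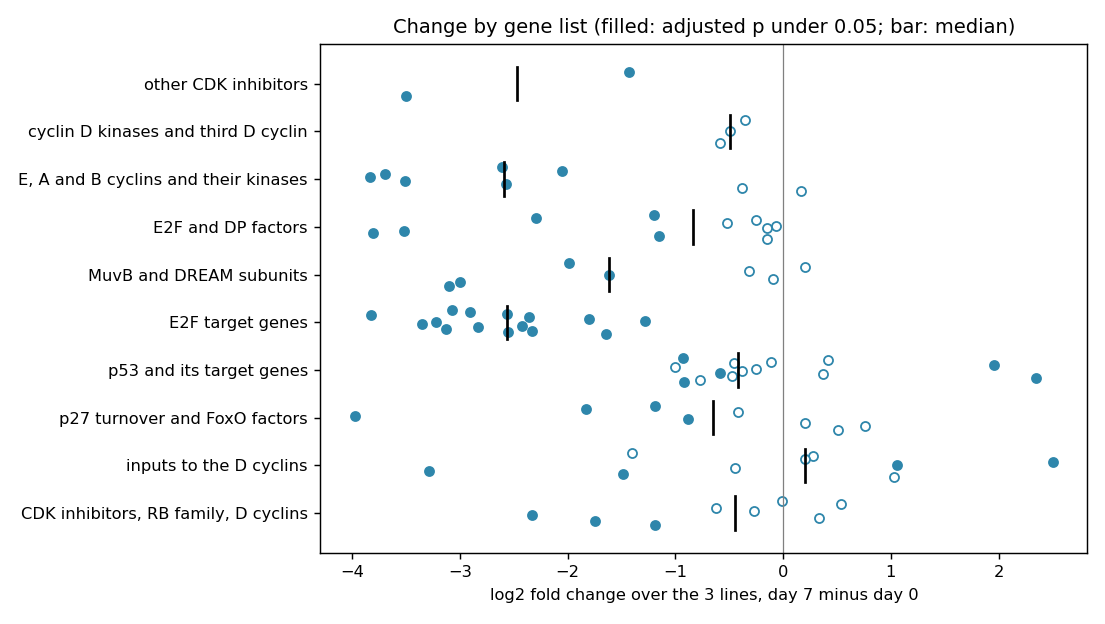
Log2 fold change over the 3 lines from day 0 to day 7 (horizontal axis) of each tested gene of 9 pathway lists and of the 8 counted CDK inhibitors, RB family members and D cyclins (rows), filled where the adjusted p was under 0.05, with a bar at each list's median. All 15 E2F target genes lie below 0 and are filled, whereas Ccnd3, Cdk4 and Cdk6 lie between -0.59 and -0.35 and are open.

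Upstream of the gate, p53 and its target genes had 2 of 14 called higher and 3 called lower, with a median of -0.42, beside 17.1% and 17.3% of all genes. Trp53inp1 and Sesn1 rose by 2.35 and 1.96, and Sesn2 was at -1.0 and did not pass. The 3 called lower were Trp53 itself, Eda2r and Zmat3, with changes of -0.93, -0.92 and -0.59. Of the list of p27 turnover genes and FoxO factors, which also holds the mitotic gene Cdc20, 4 of 8 fell and 0 rose, with a median of -0.65. Foxo1, Foxo3 and Foxo4 were at 0.2, 0.76 and 0.51 and did not pass. Cdc20, Cks1b and Skp2 fell, with changes of -3.97, -1.83 and -1.19. Skp2 and Cks1b belong to the ligase that marks p27 protein for destruction, a step after the RNA counted here. Of 9 inputs to the D cyclins 2 rose and 2 fell, with a median of 0.20. Fos rose by 2.50 and Etv4 and Etv5, which respond to FGF and Ras signals, fell, with changes of -3.29 and -1.49. Of the mesenchymal markers 1 rose and 3 fell, with a median of -0.58.

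For the 3 members with the widest range over the libraries, the genes with the most similar pattern were looked up among 8337 protein-coding genes, by Pearson's r of log2 CPM over the 6 libraries. Csk and Ddah1 were closest to Ccnd1, with r of 0.9986 and 0.9962. Exo1 and Ndc80 were closest to Rbl1, both with r of 0.9992. Pam and Slurp1 were closest to Ccnd2, with r of 0.9973 and 0.9972. Since 910, 1045 and 966 genes had an r over 0.9 with Ccnd1, Rbl1 and Ccnd2, and the 6 points share the change of day, such likeness was common and is given as a description.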

How the data were processed

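RNA-seq counts of 6 libraries were used, 1 for each line and day. Per the labels' processing notes, the authors used Trimmomatic 0.39 for trimming, HISAT2 2.2.1 for alignment to GRCm38, SAMtools 1.12 for filtering by mapping quality and HTSeq 0.11.1 for counting. The deposited values are raw counts per Ensembl gene, with 0 rows that name no gene. Symbols, positions and exon lengths were taken from GENCODE M21. The 10 genes, the lists and the rule for named genes (the members, the hairpin targets, up to 3 genes a list by day effect, and the 2 nearest patterns of 3 members) were chosen with earlier results of these data known. Counts were fitted with edgeR 4.0.16 (R 4.3.3), with TMM factors of 0.908 to 1.13, filterByExpr by day, and line and day as terms, leaving 2 residual degrees of freedom. The line pairs its days because both come from the same cells. Across genes, the deviation of a line from the day mean at day 0 correlated with that at day 7, with r of 0.389 (shControl), 0.421 (shNFIB) and 0.26 (shMLL1). The coefficient of variation was estimated at 0.277. Pairs of libraries were compared by log2 ratios with a prior count of 0.125 and exact Clopper-Pearson 95% intervals of the counts, and day changes of 2 lines with a normal interval from Poisson errors. Intervals and floors cover counting error only. Alternatives were DESeq2 1.42.0, its size factors, library totals alone, no filter, no line block, each line left out, a fold of 1.5 and a prior count of 2. The fit of day was checked on simulated counts with 200 changed genes and no difference between lines. That check does not cover day changes that differ between lines. Python 3.11.15, scipy 1.17.1 and matplotlib 3.10.9 served for intervals and figures.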

Additional observations from a re-analysis of the deposited data

Results flagged for a closer look

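Of the 8 counted genes, 3 had opposite directions from day 0 to day 7 in different lines, each line being 1 pair of libraries. Cdkn1a had a log2 difference of 0.38 in shMLL1 and of -0.39 in shControl. Rb1 had 0.52 in shMLL1, against -0.50 in shControl and -0.80 in shNFIB. Rbl2 had 0.31 in shNFIB and 0.76 in shMLL1, against -0.10 in shControl. The difference between the lines was not tested, since 6 libraries in 6 conditions leave no residual degrees of freedom. With counting error alone, the day difference of shMLL1 minus that of shControl was 0.77 (0.69 to 0.84) for Cdkn1a, 1.02 (0.84 to 1.20) for Rb1 and 0.86 (0.72 to 1.01) for Rbl2.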

How the results depend on the processing

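Over the alternatives, Rbl1, Ccnd1 and Ccnd2 were called lower at day 7 in 8 of 8, with log2 changes of -2.56 to -2.17, -2.06 to -1.59 and -1.33 to -1.05. Genes called lower at day 7, 2719 over the 3 lines, numbered 1810 without the line block, 1707 with a fold over 2 required, and 1076 to 2666 with 1 line left out. Genes called higher, 2679, numbered 967 to 2534 with 1 line left out, and the lowest of both ranges was without shControl. With library totals alone 1 member, Cdkn1b, was called higher. Leaving out 1 line gave 0 members called higher in each case and 3 to 4 called lower, Rb1 being added without shMLL1. Line differences depended on the tool: the 40 genes of shNFIB became 688 with no filter, 614 with DESeq2's test and 533 with the 4 libraries compared, and the 5 genes of shMLL1 became 526, 410 and 183. With no filter and with DESeq2 alike, 1 member was called in shNFIB (Cdkn1a) and 1 in shMLL1 (Cdkn2c). The cause was not tested. For a line difference, the fit with 4 libraries is the one that leaves out the third line.

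At a fold of 1.5 in place of 2, members past it numbered 4 in shControl and 5 in shMLL1 for day 7 against day 0, 3 in shNFIB and 3 in shMLL1 against shControl at day 0, and 2 and 3 at day 7. Over all genes 56.2% and 62.6%, 27.2% and 37.4%, and 38.8% and 26.5% were past 1.5-fold in these comparisons. With library totals alone, 0 were past 2-fold in shNFIB at day 0 and 2 at day 7, and with DESeq2's size factors 0 in shMLL1 at day 0. Small differences changed sign. For Cdkn1a the day difference of -0.01 became 0.12 with library totals alone, 0.01 without the block and -0.25 to 0.13 with 1 line left out, positive without shControl. For Rb1 it was -0.69 without shMLL1 and 0.01 without shNFIB, and its shNFIB difference of 0.01 became -0.01 with DESeq2's size factors and with its test, -0.09 with library totals alone and -0.04 with 4 libraries. With 1 library a condition, depth limited little for the 8 counted genes, and the spread between cultures is unknown.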
